A study of Rattus norvegicus with 4 samples.

Results

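Repair-type nerve spots are the 400 spots of injured trigeminal tissue with the highest summed level of Pou3f1, Gpr83, Cthrc1 and Thbs2, taken from 4619 spots with at least 2000 unique molecular identifiers (UMIs) over 3 capture areas. A Visium spot is a small circle of barcoded capture probes under a tissue section and can hold parts of several cells, so a spot is not a cell. The score was the sum of the 4 markers in UMIs per 1000000 UMIs of the same spot (CPM). The series held 6773 spots in 4 areas, of which 4760 lay in the injured areas. The members were described against Schwann cell myelin spots, the 10% of spots of each injured area with the highest summed CPM of Prx, Egr2, Drp2, Ncmap and Cldn19 that were not members (420 spots), and against the remaining 3799 spots of the same areas.

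The trigeminal neuralgia areas TN1, TN2 and TN3 each held trigeminal root, ganglion and proximal branches from the operated side of 1 wild-type adult male Sprague–Dawley rat with a mechanically compressed trigeminal root. The healthy control area (HC) pooled tissue of 2 animals. Its description differs between the sources, which name either the uninjured side of compressed rats or sham-operated rats, so HC was used as labelled. All 4 areas lay on 1 slide and tissue was taken once behavioural tests made days after compression had settled, while the day itself is not given in the sources used here.

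Schwann cells wrap peripheral axons in myelin. After nerve injury they switch off myelin genes, turn on the transcription factor Jun, clear myelin together with invading macrophages and support regrowing axons, a state called the repair Schwann cell. Pou3f1 encodes a transcription factor of Schwann cells about to myelinate, Gpr83 a G protein-coupled receptor, Cthrc1 a secreted protein of injured tissue and Thbs2 a matrix-bound thrombospondin. Prx, Drp2, Ncmap and Cldn19 encode components of the myelinating Schwann cell, and Egr2 its master transcription factor.

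TN1 stood apart from the other injured areas. It held 4 members of 1578 eligible spots (0.253%, exact binomial 95% interval 0.0691 to 0.648), against 125 of 1240 in TN2 (10.1%, 8.46 to 11.9) and 271 of 1801 in TN3 (15%, 13.4 to 16.8). In HC, 0 of 2004 eligible spots reached the score of the last member, which allows a share of up to 0.150% at a limit of 3 counts (0.184% by the exact binomial interval). Counting error alone enters these limits. The 4 members of TN1 together held 32426 UMIs, so that 1 UMI there equals 30.8 CPM, whereas the members of TN2 held 4778952 and those of TN3 6036918. The 4 spots held 10 UMIs of Pou3f1, 24 of Thbs2, and 0 of Gpr83 and Cthrc1. The injured tissue is thus described mainly by TN2 and TN3, and the tests were run with and without TN1.

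The score spread without a gap at the boundary. The last member scored 930.1 CPM from 10 marker UMIs among 10751, and the first spot outside scored 929.5 CPM from 8 among 8607. Within 5% of that score lay 39 members above and 52 spots below. The median score was 1208 CPM over members and 145 CPM over the other eligible injured spots. The highest score was 2247 CPM in TN3 and 2014 in TN2, while TN1 reached 1316 and HC 623 CPM. All these values follow from the rule and carry no test.

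**Figure D1:**
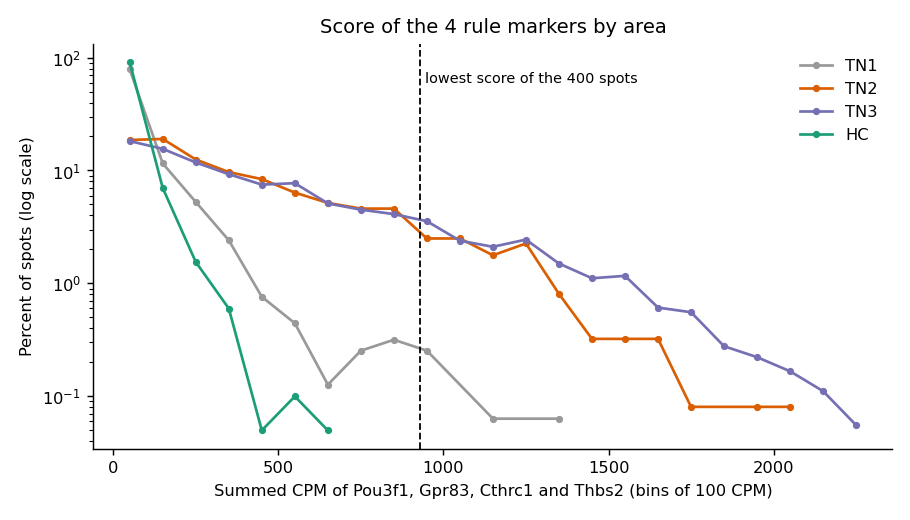
Percent of eligible spots of each area (y axis, log scale) by summed CPM of the 4 rule markers (x axis, bins of 100 CPM, empty bins left out), with the lowest member score as a dashed line. TN2 and TN3 reach past 2000 CPM, TN1 has 4 spots past the line and HC ends at 623 CPM.

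Most members held a UMI of all 4 markers, but the rule chose them by the sum of these genes and members were deep. Their joint presence is therefore a description only. Single markers were also common outside, with a UMI in 57.3% (Pou3f1) to 81.6% (Thbs2) of the remaining spots of TN2. All 4 had a UMI in 342 members (85.5%), 3 of them in 46, 2 in 11 and 1 in a single spot. Thbs2 was present in all 400 members and held 46.6% of their marker UMIs, Gpr83 in 370, Cthrc1 in 378 and Pou3f1 in 381. Over all eligible spots the 6 marker pairs had Pearson's r between 0.43 and 0.58 in the 1240 spots of TN2 and between 0.36 and 0.47 in the 1801 of TN3, on log2 of CPM plus 10. Pairs in a spot share its library and depth, and these correlations are a description only. Among members, r of Gpr83 and Thbs2 was -0.36 in TN2 and -0.29 in TN3, that of Pou3f1 and Cthrc1 -0.41 and -0.05, that of Pou3f1 and Thbs2 0.30 and 0.03, and that of Gpr83 and Cthrc1 -0.05 and 0.13. The rule sets a minimum for the sum of the 4 markers, and its part in these values was not tested.

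Marker levels were read on sums over the spots of a set. Thbs2 reached 740.1 CPM (24 UMIs) in members of TN1, 629 in TN2 and 547 in TN3, against 61.0, 317 and 199.7 in the Schwann cell myelin spots. Gpr83 reached 199.8 CPM in members of TN2 and 372 in TN3, against 83.2 and 77.2 in the myelin spots, with 0 UMIs in TN1. Cthrc1 reached 217 and 214 CPM in TN2 and TN3, against 65.8 and 57.7. Pou3f1 was the least separated of the 4, at 148 and 166 CPM in TN2 and TN3 against 85.6 and 82.9. Members stood above both other sets for each of the 4 genes in TN2 and TN3, as the rule requires of their sum.

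The other injured spots were not free of these genes. Over all spots, Cthrc1 stood at 72.8 CPM in TN2 and 91.4 in TN3, against 3.82 in TN1 and 2.49 in HC. Gpr83 stood at 75.3 and 126 CPM in TN2 and TN3, 2.29 in TN1 and 3.17 in HC. Thbs2 gave 238 and 228 CPM in TN2 and TN3, 21.2 in TN1 and 9.77 in HC. Pou3f1 gave 62.7 and 78.6 CPM in TN2 and TN3, 22.4 in TN1 and 12.8 in HC. TN1 lay nearer to HC than to TN2 and TN3 for all 4. In the myelin spots Pou3f1 was at 91.2, 85.6 and 82.9 CPM in TN1, TN2 and TN3 and at 30.4 CPM in HC, so for this gene and set TN1 lay with the injured areas. HC is a single area, so no test of injured against control was made.

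**Figure D2:**
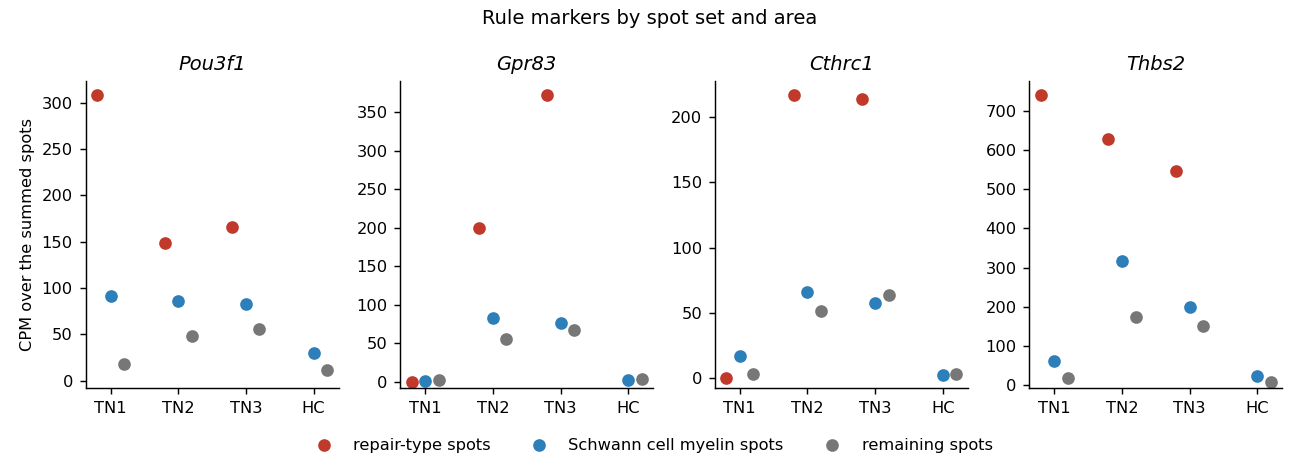
CPM of the 4 rule markers (y axis) in the summed members, Schwann cell myelin spots and remaining spots of each area (x axis), 1 point for each set and area and no members in HC. The member points lie highest in TN2 and TN3, and the TN1 member points rest on 4 spots.

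That members held the markers more often follows from the rule, and the shares are given at equal depth as a description. Members were deep, with a median of 38882 UMIs per spot in TN2 and 21856 in TN3, against 28656.5 and 11639 in the myelin spots. With each spot thinned to 2000 UMIs, Gpr83 was found in 29.6% of members of TN2 and 43.2% of TN3 (94.4% and 93.0% unthinned), against 10.2% and 13.7% of the myelin spots (78.4% and 52.6% unthinned) and 0.599% of eligible HC spots (5.89% unthinned). Thinned shares of Cthrc1 were 25.6% and 37.3% in members and 12.5% and 13.1% in the myelin spots of TN2 and TN3.

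Each marker was also read in spots chosen without it. These sets shared 74.5% (without Thbs2) to 90.5% (without Pou3f1) of their spots with the members. As the 4 markers were picked together, the values are a description and no independent check. With the score made from the other 3 genes and 400 spots kept, Gpr83 was 2.15-fold higher in the chosen spots of TN2 than in its other eligible spots (141 against 65.4 CPM) and 3.12-fold higher in TN3 (291 against 93.3 CPM). Cthrc1 was 2.67-fold higher in TN2 (163 against 61.2 CPM) and 2.74-fold higher in TN3 (190.3 against 69.6 CPM). Pou3f1 was 2.51-fold and 2.39-fold higher, and Thbs2 2.54-fold and 2.55-fold higher, in TN2 and TN3. In TN1 the spots chosen by the other genes held 0 UMIs of Gpr83 (12 spots) and 0 of Cthrc1 (9 spots). Its other eligible spots had Gpr83 at 2.30 CPM and Cthrc1 at 3.83 CPM. Pou3f1 was at 197 CPM in the chosen spots of TN1 (3 spots, 4 UMIs) against 22.2 CPM. Thbs2 was at 93.7 CPM (5 spots, 3 UMIs) against 21.1 CPM. With so few UMIs, no fold is given for TN1.

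Members were also split by the rule marker that held most of their marker UMIs. Thbs2 gave the largest share of marker UMIs in 279 spots, Gpr83 in 96, Cthrc1 in 17 and Pou3f1 in 8. In TN3, the 82 members led by Gpr83 had less myelin RNA than the 171 led by Thbs2, with Pmp22, a membrane protein of compact peripheral myelin, at 4120.1 against 7536 CPM and Prx at 238 against 596 CPM. In TN2 the 14 spots led by Gpr83 likewise had Pmp22 at 4062 against 9193 CPM in the 104 led by Thbs2. Jun stood at 371 against 274 CPM in TN3 and at 459 against 278 CPM in TN2. Sox2, a factor of immature and repair Schwann cells, stood at 248 against 153 CPM in TN3 and 223 against 117 CPM in TN2. Ngfr, the low-affinity neurotrophin receptor, stood at 863 against 644 CPM in TN3 and 1002 against 689.6 CPM in TN2. In both areas the Gpr83-led spots were lower in Pmp22 and higher in these 3 genes. Sox10, which marks the Schwann cell lineage, was at 445 against 394 CPM in TN2 and all but equal in TN3. Markers of other cell types moved with the split. The astrocyte list summed to 1875 against 546 CPM in TN2 and 1242 against 875 CPM in TN3, and the sensory neuron list to 3270.0 against 4675 CPM in TN2 and 3426 against 4739 CPM in TN3. Macrophage genes were higher in the Gpr83-led spots of TN3, with Lyz2 at 2392 against 1797 CPM and Cd68 at 293 against 226 CPM. In TN2 they went both ways, with Lyz2 at 1550.2 against 1676 CPM, Cd68 at 139.7 against 133.1 CPM and C1qa, a complement gene, at 485 against 317 CPM. The fibrillar matrix and fibroblast list was lower in the Gpr83-led spots, at 12679 against 17779.9 CPM in TN2 and 11581 against 13685 CPM in TN3. The part of these cell types in the split was not tested. The split was made after the values had been seen and carries no test.

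**Figure D3:**
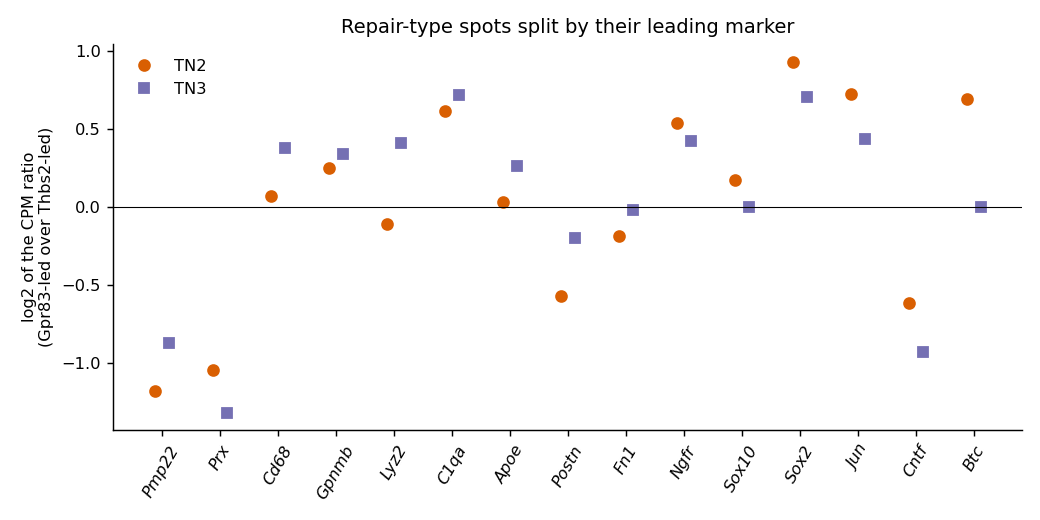
Log2 of the ratio of CPM in members led by Gpr83 to that in members led by Thbs2 (y axis) for 15 genes (x axis), 1 point for TN2 (14 against 104 spots) and 1 for TN3 (82 against 171 spots). Pmp22, Prx and Cntf lie below 0 and Ngfr, Sox2 and Jun above 0 in both areas.

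The first comparison asked how members differed from the myelin spots of the same areas. UMIs were summed per area and set and fitted with edgeR's quasi-likelihood test with the area as a block, with Benjamini-Hochberg adjustment and a threshold of 0.05. The 9 genes that chose the spots were left out of the test. In members, 11 of 21 macrophage genes were higher, while 15 of 21 peripheral myelin, 12 of 21 cholesterol synthesis and 14 of 19 sensory neuron genes were lower. Matrix genes and growth factors included calls in both directions. Of 9276 genes tested, 254 were higher (2.74%) and 508 lower (5.48%) in members, and 762 differed in all (8.21%). The median fitted log2 fold change over all genes was -0.01, and CPM ratios of TN2 and TN3 stood above fitted values by a median of 0.14 on the log2 scale.

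The number of calls fell when any area was left out, to 0 without TN1, 243 without TN2 and 43 without TN3 in edgeR's quasi-likelihood test. Without TN1, 2011 of 10235 genes had an unadjusted p under 0.05, against 1780 of 9276 with it, while DESeq2 without TN1 called 41 genes higher (0.401%) and 85 lower (0.83%). Of those 126 genes (1.23%), 125 were among the 762. With TN1, DESeq2 called 70 genes (0.755%), 11 higher (0.119%) and 59 lower (0.636%). All 760 of the 762 that could be fitted without TN1 kept their sign. Without the area as a block, or with an equal number of spots from each area, edgeR called 0 genes (1261 and 1401 with an unadjusted p under 0.05). The small number of sums borrows its spread from all genes, and the TN1 members hold few UMIs. The adjusted p of a gene below therefore measures neither its steadiness over these 3 areas nor an effect in further animals. Tnc and Runx2, for example, passed as higher with 0 UMIs in the TN1 members, against 12 and 14 UMIs in the TN1 myelin spots. As 0 genes passed in edgeR without TN1, each edgeR call below is lost there, and for genes given an adjusted p a pass in DESeq2 without TN1 is stated.

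The 12 largest rises included Olr1, Igsf10, Btc, Postn, Plac8, Emp1, Fhl2, Cp, Cemip, Egr1 and Ppic. Of the 12, 8 had a single UMI in the TN1 members, and 6 (Postn, Plac8, Emp1, Cp, Cemip and Ppic) also passed in DESeq2 without TN1. Emp1, a membrane protein of the family of Pmp22, was at 185 CPM (6 UMIs), 371 and 298 CPM in members of TN1, TN2 and TN3 and at 30.9, 161 and 92.4 CPM in the myelin spots. Its members stood above the myelin spots of every area, with a log2 fold change of 1.36 (SE 0.21, adjusted p = 1.71e-08, edgeR's quasi-likelihood test). Cemip, which breaks down hyaluronan, was at 339 (11 UMIs), 240.0 and 226 CPM in members and at 109, 91.1 and 85.3 CPM in the myelin spots (log2 fold change 1.25, SE 0.20, adjusted p = 7.48e-08 in edgeR). Here no member sum overlapped a myelin sum, which held for 10.7% of all genes tested upwards and 4.41% downwards.

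Postn, which encodes the matrix protein periostin, was at 153 and 99.9 CPM in members of TN2 and TN3 against 54.0 and 31.9 CPM, with 1 UMI in TN1 (log2 fold change 1.44, SE 0.21, adjusted p = 6.09e-09 in edgeR). Its level varied widely between members, from 0 to 1306 CPM in TN2 with a median of 95.8. Olr1, a scavenger receptor, had the largest fitted value, a log2 fold change of 2.60 (SE 0.46) that fell to 1.58 without TN1, where 9 UMIs stood against 0. In TN2 and TN3 it was a rare transcript, at 13.0 and 11.9 CPM against 5.13 and 2.38 CPM.

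The largest falls were Ddn, Sfrp5, Tekt3, Pla2g5, Cnmd, Cadm3, Ppp1r1b, Fxyd2, Mia, Slc36a2, Kcnk1 and Mrap, of which 5 had 1 UMI in the TN1 members and 6 (Sfrp5, Cnmd, Cadm3, Fxyd2, Kcnk1 and Mrap) passed also in DESeq2 without TN1. Sfrp5, a secreted inhibitor of Wnt signalling, was at 555 (18 UMIs), 69.3 and 76.2 CPM in members of TN1, TN2 and TN3 and at 994, 274 and 631 CPM in the myelin spots. It was lower in every area, with a log2 fold change of -2.44 (SE 0.22, adjusted p = 1.26e-25 in edgeR, 4.66e-14 in DESeq2 without TN1). Cnmd, which encodes chondromodulin, was at 1234 (40 UMIs), 91.0 and 123 CPM against 1494, 244 and 773 CPM (log2 fold change -1.84, SE 0.21, adjusted p = 7.53e-15 in edgeR, 0.0332 in DESeq2 without TN1). Cadm3, a cell adhesion molecule, was at 123 (4 UMIs), 117 and 74.9 CPM against 390.1, 266 and 317 CPM (log2 fold change -1.80, SE 0.21, adjusted p = 1.03e-14 in edgeR, 1.09e-05 in DESeq2 without TN1). For Cadm3 the highest member sum lay below the lowest myelin sum, whereas those of Sfrp5 and Cnmd overlapped through TN1, whose levels were high in both sets.

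**Figure D4:**
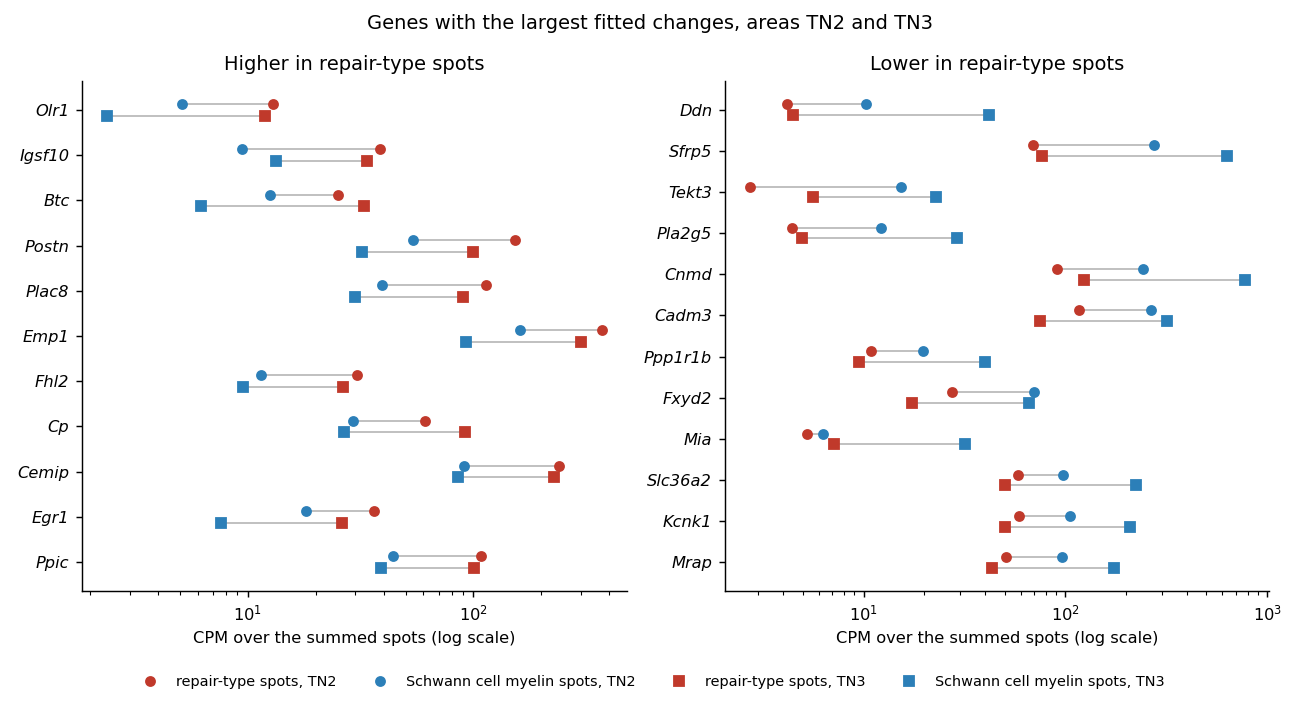
CPM (x axis, log scale) of 11 of the named genes with the largest fitted rises and the 12 with the largest falls in members (red) against Schwann cell myelin spots (blue), circles for TN2 and squares for TN3. In both areas every red point lies right of its blue partner on the left and left of it on the right.

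Promoters were searched on both strands for the letters of 4 motifs, AP-1 (TGANTCA), TEAD (GGAATG), EGR (GCGTGGGCG) and SOX (ACAAAG). RefSeq windows from 250 bases before to 50 after the start (build GRCr8) were held for 11 of the 12 rises and 6 of the 12 falls. The AP-1 letters, those of the complex that contains Jun, were in 2 of the 11 rises, Emp1 and Olr1, and in 1 of the 6 falls, against 7.33% of all 27457 windows. The TEAD letters were in 3 rises and 3 falls against 13.9% of windows, the SOX letters in 0 rises and 1 fall against 18.3%, and the EGR letters in 0 of both against 0.59%. The 2 windows with AP-1 letters are shown 5′ to 3′ on the gene's strand with these letters in capitals, Emp1 at chr4:169943980-169944279 (plus strand) and Olr1 at chr4:164634498-164634797 (minus strand). A match is a description of letters and not of binding.

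Emp1: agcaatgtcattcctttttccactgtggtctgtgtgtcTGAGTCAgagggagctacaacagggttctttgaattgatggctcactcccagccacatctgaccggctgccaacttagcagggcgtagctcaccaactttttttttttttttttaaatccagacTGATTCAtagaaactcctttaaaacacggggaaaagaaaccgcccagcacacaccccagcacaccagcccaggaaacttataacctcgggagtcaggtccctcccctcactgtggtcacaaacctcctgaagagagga

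Olr1: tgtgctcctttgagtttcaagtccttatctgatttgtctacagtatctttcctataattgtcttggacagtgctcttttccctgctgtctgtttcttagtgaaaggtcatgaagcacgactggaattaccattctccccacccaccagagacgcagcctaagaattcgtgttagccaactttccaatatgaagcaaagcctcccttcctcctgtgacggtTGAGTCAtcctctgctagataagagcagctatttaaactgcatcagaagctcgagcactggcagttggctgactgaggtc

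The repair Schwann cell list was in part raised. Of its 30 genes, 22 were tested, and 8 were higher and 0 lower in members than in the myelin spots (median log2 fold change 0.53 against -0.01 over all genes), with 2 higher in DESeq2 without TN1. The 8 were Jun, Btc, Clcf1, Ucn2, Sox2, Runx2, Ngfr and Tnc. Ngfr was at 463 (15 UMIs), 719 and 717 CPM in members of TN1, TN2 and TN3 and at 147, 630.0 and 297 CPM in the myelin spots. It passed in edgeR (log2 fold change 0.67, SE 0.21, adjusted p = 0.0192, 0.399 in DESeq2 without TN1) and the sets overlapped, as the myelin spots of TN2 were nearly as high as members. Jun was at 216 (7 UMIs), 298 and 308 CPM against 99.9, 250.4 and 133.4 CPM (log2 fold change 0.58, SE 0.20, adjusted p = 0.0482 in edgeR, 0.412 in DESeq2 without TN1). Sox2, at 129 and 187 CPM in TN2 and TN3 against 81.6 and 58.1 CPM, had a log2 fold change of 1.02 (SE 0.20, adjusted p = 4.2e-05 in edgeR, 0.0492 in DESeq2 without TN1).

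Other members of that list were near or at 0. Shh, a signal released by repair Schwann cells, had 4 UMIs in all members, and Gdnf, a neurotrophic factor, had 1. Fgf5 had 2 UMIs, Lif 5 and Pax3 0. Btc, an EGF receptor ligand, was at 25.1 and 32.6 CPM in TN2 and TN3 against 12.6 and 6.19 CPM (log2 fold change 1.49, SE 0.32, adjusted p = 0.000214 in edgeR). Gap43 and L1cam, which axons also express, did not pass, and Gap43 was at 223 against 416 CPM in TN2 but at 145 against 114 CPM in TN3. As a check of the label, the listed genes outside the rule gave 8 calls, of which Sox2 and Tnc were also called in DESeq2 without TN1, and near-absent Shh and Gdnf. The fitted log2 fold change without TN1 was close to that with it, at 0.58 and 0.58 for Jun, 1.45 and 1.49 for Btc and 0.98 and 0.95 for Runx2. Tnc, the matrix protein tenascin C, was at 153 and 104 CPM in TN2 and TN3 against 71.4 and 47.7 CPM, with 0 UMIs in the TN1 members (log2 fold change 0.96, SE 0.20, adjusted p = 0.000185 in edgeR, 0.0451 in DESeq2 without TN1).

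Most genes of the Schwann cell lineage did not pass against the myelin spots. Sox10 was at 339 (11 UMIs), 391 and 389 CPM in members of TN1, TN2 and TN3 and at 286, 364 and 323 CPM in the myelin spots (log2 fold change 0.00, SE 0.20, adjusted p = 0.999 in edgeR). Of 11 lineage genes tested, 1 was higher (Sox2) and 2 lower (S100b and Kcna1), with 1 each way in DESeq2 without TN1. S100b, a calcium-binding protein of glia, was at 1602 and 1833 CPM against 2340.4 and 3649 CPM in TN2 and TN3 (log2 fold change -0.86, SE 0.22, adjusted p = 0.00232 in edgeR, 0.0151 in DESeq2 without TN1). In sums of spots, fewer cells of a type and less RNA per cell cannot be told apart.

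Peripheral myelin genes were lower. Of 24 genes, 21 were tested, 15 of them lower and 0 higher in members (median log2 fold change -0.91), with 5 lower in DESeq2 without TN1. Pmp22 was at 22852, 8246 and 6279 CPM in members of TN1, TN2 and TN3 and at 32094, 12575 and 23407 CPM in the myelin spots. It was lower in every area, though the TN1 members held more than the myelin spots of TN2 (log2 fold change -1.26, SE 0.27, adjusted p = 0.00015 in edgeR, 0.356 in DESeq2 without TN1). Mbp, which encodes myelin basic protein, was at 5892 and 5062 CPM against 8105 and 11605 CPM (log2 fold change -0.90, SE 0.24, adjusted p = 0.0053 in edgeR, 0.0172 in DESeq2 without TN1). The size of the gap differed between areas, as the list's median log2 CPM ratio was -0.28 in TN2 and -1.20 in TN3. Since the myelin spots were chosen by 5 genes of the same program, a gap in this direction partly follows from the choice of spots.

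Members still carried much myelin RNA. Pmp22 ranged from 1136 to 21318 CPM over members of TN2, with a median of 6875, and from 1874 to 30285 CPM in TN3, with a median of 5850.2. Of the 462 spots with the highest myelin score before members were set aside, 42 were members, 1 of them in TN1, 36 in TN2 and 5 in TN3. These were 10.5% of members and 9.09% of the highest myelin spots.

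Cholesterol synthesis genes, on which myelin growth draws, were lower too. Of 21 tested, 12 were lower and 0 higher (median log2 fold change -0.67), with 2 lower in DESeq2 without TN1. Hmgcs1, an early enzyme of the pathway, was at 678 (22 UMIs), 304 and 241 CPM in members and at 1056, 371 and 514 CPM in the myelin spots. Every area had the member sum below its myelin sum (log2 fold change -0.90, SE 0.20, adjusted p = 0.000383 in edgeR, 0.091 in DESeq2 without TN1). Fdps, a farnesyl diphosphate synthase, was at 213 and 169 CPM against 326 and 306 CPM in TN2 and TN3 and passed also in DESeq2 without TN1 (adjusted p = 0.0281).

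Macrophage genes were higher. Of 21 tested, 11 were higher and 1 lower (median log2 fold change 0.69), with 6 higher in DESeq2 without TN1. The summed level of the 22 genes was 20143 and 28481 CPM in members of TN2 and TN3 and 16099.9 and 11396 CPM in the myelin spots, but 6507 against 6868 CPM in TN1. Lyz2, which encodes lysozyme, was at 1759 and 2023 CPM in TN2 and TN3 against 1026 and 596 CPM, and at 308 against 422 CPM in TN1. It was higher in TN2 and TN3 and not in TN1 (log2 fold change 0.77, SE 0.22, adjusted p = 0.00778 in edgeR, 0.00482 in DESeq2 without TN1). Gpnmb, a glycoprotein of lipid-laden macrophages, was at 342 and 485 CPM against 171 and 141 CPM (log2 fold change 1.17, SE 0.21, adjusted p = 4.11e-06 in edgeR, 0.00153 in DESeq2 without TN1), with 0 UMIs in the TN1 members.

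Cd68, a lysosomal marker of macrophages, was at 137 and 249 CPM in members of TN2 and TN3 against 79.2 and 53.4 CPM, with 0 UMIs in the TN1 members (log2 fold change 1.29, SE 0.21, adjusted p = 1.16e-07 in edgeR, 0.00665 in DESeq2 without TN1). It was found in 96.0% of members of TN2 and 90.4% of TN3, with a median of 102 and 206 CPM. Such shares are not given for the other sets. Apoe, a lipid carrier and the most abundant gene of the list, which satellite glia also express, was at 12689 and 18716 CPM against 10243 and 6396 CPM and did not pass (log2 fold change 0.42, SE 0.25, adjusted p = 0.371 in edgeR). Spp1, which Schwann cells also make, was the gene that was lower, at 919 and 854 CPM against 1112 and 1273 CPM (adjusted p = 0.0264 in edgeR, 0.237 in DESeq2 without TN1). Macrophage RNA thus moved with membership in TN2 and TN3, and its part in the other differences was not tested.

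Matrix genes were split. Of 21 genes of fibrillar matrix and fibroblasts tested, 6 were higher (Fn1, Postn, Bgn, Mgp, Loxl1 and Tnc) and 2 lower (Col5a3 and Fbln2), with a median log2 fold change of 0.41 and 5 higher in DESeq2 without TN1. Fn1, which encodes fibronectin, was at 278 (9 UMIs), 669 and 487 CPM in members and at 187, 282 and 250.2 CPM in the myelin spots. Members were higher within each area (log2 fold change 0.84, SE 0.20, adjusted p = 0.00142 in edgeR, 0.0144 in DESeq2 without TN1). Mgp, an inhibitor of calcification, was at 3568 and 1439.6 CPM in TN2 and TN3 against 1098 and 814 CPM (log2 fold change 0.78, SE 0.22, adjusted p = 0.00657 in edgeR, 0.00867 in DESeq2 without TN1). The collagen Col1a1 was at 2423 and 2154 CPM against 1576 and 1831 CPM and did not pass (log2 fold change 0.03, SE 0.21, adjusted p = 0.975 in edgeR), nor did Sparc and Dcn. Of 14 basement membrane genes, 2 were higher (Nid2 and Col18a1) and 0 lower (median 0.12), with 0 called in DESeq2 without TN1.

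Genes of the TGF-beta and YAP pathways, which drive matrix production, included 7 higher and 1 lower of 18 tested (median log2 fold change 0.57), with 1 higher (Tgfbr1) and 0 lower in DESeq2 without TN1. The higher ones included the receptor gene Tgfbr1, the latent TGF-beta binding proteins Ltbp1 and Ltbp2, the target gene Ccn2, and Bmp1 and Bmp7. The lower one was Fstl3, which encodes an inhibitor of activins. Tgfbr1 was at 91.2 and 136 CPM in TN2 and TN3 against 57.2 and 35.7 CPM, with 1 UMI in TN1 (log2 fold change 1.08, SE 0.21, adjusted p = 2.12e-05 in edgeR, 0.0438 in DESeq2 without TN1). Growth factors and receptors of nerve repair had 4 higher (Btc, Igf1, Ngfr and Vegfa) and 4 lower (Hbegf, Tgfa, Ret and Cntf) of 26 tested, with a median of 0.21 and 0 higher and 2 lower in DESeq2 without TN1. Cntf, a neurotrophic factor of myelinating Schwann cells, was at 709 (23 UMIs), 119 and 123 CPM against 731, 219 and 494 CPM (log2 fold change -1.39, SE 0.20, adjusted p = 5.41e-09 in edgeR, 0.000288 in DESeq2 without TN1). Its level was lower in members of TN2 and TN3 and close to that of myelin spots in TN1.

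Neuronal RNA was lower in members. Of 19 sensory neuron genes tested, 14 were lower and 0 higher (median log2 fold change -0.80), with 3 lower in DESeq2 without TN1. The gap lay mostly in TN2, where the list's median log2 CPM ratio was -1.09, against -0.14 in TN3 and -0.07 in TN1. Nefh, the heavy neurofilament, was at 463 (15 UMIs), 381 and 361 CPM in members and 485, 1054 and 496 CPM in the myelin spots (log2 fold change -1.02, SE 0.21, adjusted p = 6.23e-05 in edgeR, 0.00518 in DESeq2 without TN1). The member sums all lay below the myelin sums.

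Other lists gave few calls against the myelin spots. Of 11 proliferation genes tested, 0 were higher and 0 lower, with Pcna, the most abundant, at 97.9 and 96.1 CPM in TN2 and TN3 against 80.8 and 68.1 CPM (adjusted p = 0.562 in edgeR). Of 10 genes of injured sensory neurons, 2 were higher (Gadd45a and Flrt3) and 1 lower (Reg3b). Of 9 satellite glia genes, 0 were higher and 3 lower. Oligodendrocyte genes had 1 higher (Cldn11) and 1 lower (Gjb1, which Schwann cells express) of 11, astrocyte genes 1 higher (Gja1) of 5, endothelial and mural genes 1 higher (Cdh5) and 2 lower of 16, and perineurium genes 0 higher and 2 lower of 6. In DESeq2 without TN1, 1 satellite glia gene was lower and 1 oligodendrocyte gene called each way, and 0 genes of the other lists just named passed. Of 6 blood and bone, 4 pituitary, 79 ribosomal protein and 12 mitochondrial genome genes, 0 passed.

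**Figure D5:**
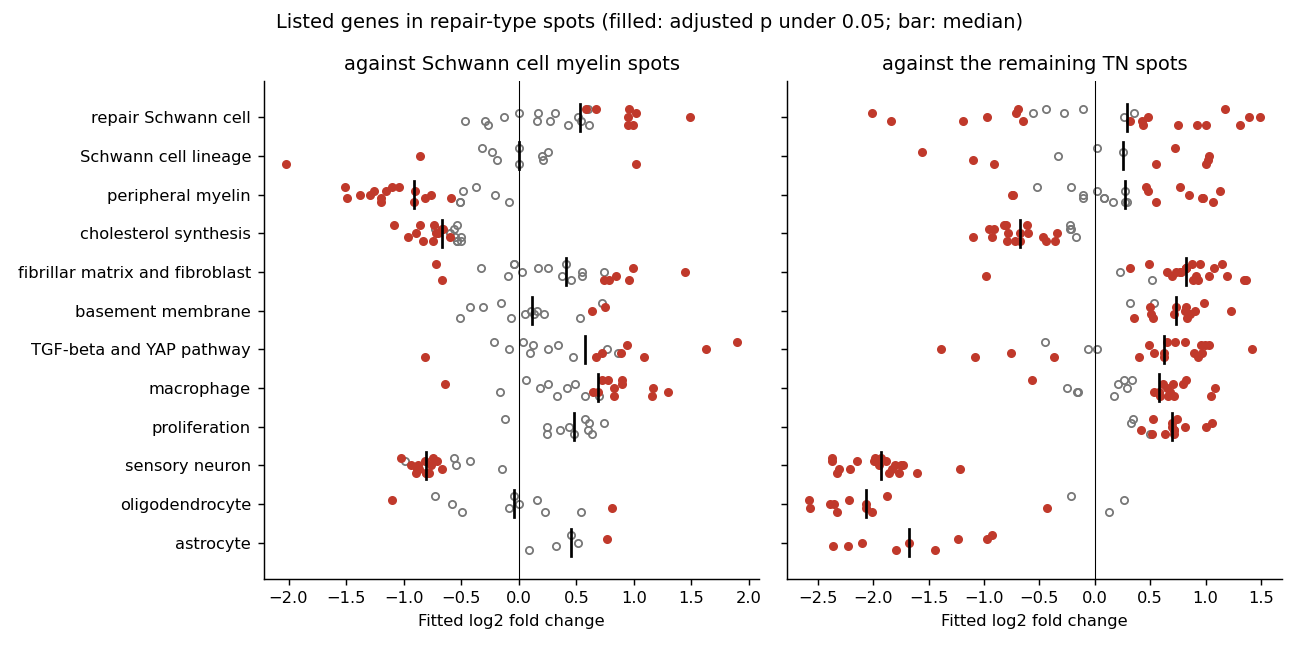
Fitted log2 fold change (x axis) of the tested genes of 12 lists (rows) in members against Schwann cell myelin spots (left) and against the remaining injured spots (right), 1 point per gene, filled where the adjusted p in edgeR with TN1 was under 0.05, with the list median as a bar. Peripheral myelin lies mostly below 0 on the left and above 0 on the right, and sensory neuron genes lie below 0 in both.

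The second comparison set members against the 3799 remaining injured spots. Members were richer in matrix, basement membrane, proliferation and macrophage genes and poorer in neuronal, oligodendrocyte, astrocyte and cholesterol synthesis genes. In edgeR's quasi-likelihood test, 2065 of 12348 genes were higher (16.7%) and 2749 lower (22.3%), 4814 in all (39%). Without TN1 edgeR called 2403 higher (19.1%) and 2896 lower (23%) of 12604 (42% in all), and DESeq2 without TN1 called 898 higher (7.12%) and 1636 lower (13%), 2534 in all (20.1%). DESeq2 with TN1 called 236 higher (1.91%) and 985 lower (7.98%), 1221 in all (9.89%). Without the area as a block, edgeR called 91 higher and 1285 lower. Each gene given an adjusted p against the remaining spots passed also without TN1 in edgeR and in DESeq2, except Pmp22. Both comparisons use the same members, so their values are given side by side and not as support for each other.

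The 12 largest rises were Dhrs3, Lama1, Igf2bp2, Btc, Tmem88, Bmp7, Cemip, Htra3, Scara5, Ucn2, Postn and Tmem100, and all 12 passed also in DESeq2 without TN1. Dhrs3, which reduces retinal to retinol, was at 123 (4 UMIs), 234 and 279 CPM in members of TN1, TN2 and TN3 and at 26.8, 77.4 and 90.1 CPM in the remaining spots. The sets did not overlap, as for 11.3% of all genes tested upwards and 22.1% downwards (log2 fold change 1.58, SE 0.14, adjusted p = 5.39e-29 in edgeR). Htra3, a secreted serine protease, was at 353 and 195 CPM in TN2 and TN3 against 118 and 79.2 CPM, with 1 UMI in TN1 (log2 fold change 1.40, SE 0.14, adjusted p = 1.11e-22 in edgeR). Ucn2, a peptide of the corticotropin-releasing factor family, was at 61.7 (2 UMIs), 49.4 and 46.2 CPM against 0.585, 20.2 and 16.2 CPM (log2 fold change 1.39, SE 0.16, adjusted p = 1.36e-17 in edgeR).

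The falls were led by genes of neurons and central glia. The 12 largest were Rasgrf1, Kcnc1, Cbln1, Slc25a18, Sst, Thrsp, Mog, Tlx2, Eef1a2, Opalin, Snap25 and Nefh, and all 12 passed in DESeq2 without TN1. Nefh was at 381 and 361 CPM in members of TN2 and TN3 against 1757 CPM in the remaining spots of either area (log2 fold change -2.38, SE 0.21, adjusted p = 1.08e-26 in edgeR). Mog, found on the surface of oligodendrocyte myelin, was at 13.6 and 10.8 CPM against 69.9 and 68.7 CPM, with 0 UMIs in the TN1 members (log2 fold change -2.58, SE 0.17, adjusted p = 9.27e-49 in edgeR). All 19 sensory neuron genes tested were lower (median log2 fold change -1.93), as were 11 of 14 oligodendrocyte genes (median -2.07) and 9 of 9 astrocyte genes (median -1.68), with 19, 10 and 8 lower in DESeq2 without TN1. Of 17 genes of injured sensory neurons, 13 were lower and 2 higher (median -1.74), with 9 and 2 in DESeq2 without TN1.

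Schwann cell lineage genes went both ways against the remaining spots, with 5 higher and 3 lower of 11 tested. Sox10 was at 391 and 389 CPM in TN2 and TN3 against 228 and 237 CPM (log2 fold change 0.72, SE 0.15, adjusted p = 8.19e-06 in edgeR). Erbb3, the neuregulin receptor of Schwann cells, was at 437 and 511 CPM against 217 and 225 CPM (log2 fold change 1.03, SE 0.15, adjusted p = 1.39e-10 in edgeR). Of 22 peripheral myelin genes tested, 9 were higher and 2 lower (median log2 fold change 0.27, with 4 and 1 in DESeq2 without TN1). This direction, opposite to the comparison with myelin spots, did not hold in every area. The list's median log2 CPM ratio was 1.35 in TN1 (4 members), 0.55 in TN2 and -0.21 in TN3. Pmp22 was at 8246 CPM in TN2 against 3883 CPM but at 6279 against 7747 CPM in TN3. Its log2 fold change of 0.77 (SE 0.28, adjusted p = 0.0203 in edgeR) went to 0.35 without TN1 (adjusted p = 0.154 in edgeR, 0.309 in DESeq2), and the direction differed between TN2 and TN3. Members thus lay between the remaining spots and the myelin spots in Pmp22 in TN2 and below both in TN3. Cholesterol synthesis genes were lower than in either set, with 17 lower and 0 higher of 21 against the remaining spots (median -0.68) and 12 lower in DESeq2 without TN1.

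The repair list was divided against the remaining spots, with 11 higher and 7 lower of 24 tested (median log2 fold change 0.29 against 0.01 over all genes) and 8 and 6 in DESeq2 without TN1. The higher ones included Sox2, Runx2, Btc, Clcf1 and Ucn2. Runx2, a transcription factor, was at 44.4 and 41.2 CPM in TN2 and TN3 against 20.7 and 16.3 CPM (log2 fold change 1.17, SE 0.16, adjusted p = 2.23e-12 in edgeR). Among the lower ones were genes that neurons or central glia also express, such as Gap43, which was at 223 and 145 CPM against 806 and 449 CPM (log2 fold change -1.84, SE 0.17, adjusted p = 6.68e-26 in edgeR). Gfap was at 529 and 772 CPM against 877 and 1434 CPM (log2 fold change -0.97, SE 0.19, adjusted p = 2.88e-06 in edgeR).

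Matrix and macrophage genes were higher against the remaining spots as well. Of 24 matrix genes tested, 21 were higher and 1 lower (median log2 fold change 0.83), with 17 higher in DESeq2 without TN1. Col1a1 was at 1480.3 (48 UMIs), 2423 and 2154 CPM in members and 362, 1331 and 1598 CPM in the remaining spots (log2 fold change 0.83, SE 0.21, adjusted p = 0.000459 in edgeR), so that the TN1 member sum lay within the range of the remaining spots. Of 15 basement membrane genes, 13 were higher and 0 lower (median 0.73), with 10 higher in DESeq2 without TN1. Col18a1 was at 1339.6 and 1123 CPM in TN2 and TN3 against 563 and 458 CPM (log2 fold change 1.23, SE 0.19, adjusted p = 9.53e-10 in edgeR). Of 22 macrophage genes, 13 were higher and 1 lower (median 0.58), with 12 higher in DESeq2 without TN1. TGF-beta and YAP pathway genes had 15 higher and 4 lower of 22 (median 0.62), and growth factors and receptors 11 higher and 8 lower of 31 (median 0.08). In DESeq2 without TN1 these were 9 and 0 for the pathway genes and 7 and 6 for the growth factors and receptors.

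Proliferation genes were low but higher in members. Of 16 tested, 13 were higher and 0 lower (median log2 fold change 0.69), with 2 higher in DESeq2 without TN1. Top2a, a topoisomerase of dividing cells, was at 19.5 and 28.2 CPM in TN2 and TN3 against 11.4 and 14.8 CPM, with 0 UMIs in TN1 (log2 fold change 0.81, SE 0.18, adjusted p = 6.77e-05 in edgeR). Mki67 was found in 46.4% of members of TN2 and 32.8% of TN3, and its share in the other sets is not given. Members were deeper, with a median of 38882 and 21856 UMIs per spot against 30588 and 14520 in the remaining spots, so these shares show no difference between sets. Which cells in these spots carried the transcripts cannot be told from spot counts.

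RNA of pituitary genes was present, most of all in TN2, and its source was not tested. Of 6 pituitary genes tested, 4 were higher against the remaining spots (2 in DESeq2 without TN1), and the 7 found in the files summed to 622 CPM in members of TN2, 117 in TN3 and 0 in TN1, against 257, 124 and 32.2 CPM in the remaining spots. Gh1 was the most abundant, at 461 CPM in TN2 and 92.9 CPM in TN3. Its part in the other differences was not tested. Blood and bone genes had 0 higher and 4 lower of 9, perineurium genes 2 higher and 3 lower of 7, satellite glia genes 1 higher and 6 lower of 10, and endothelial and mural genes 3 higher and 2 lower of 16. Ribosomal protein genes had 13 higher of 82 and mitochondrial genome genes 1 lower of 13. In DESeq2 without TN1, higher and lower calls were 0 and 1 for blood and bone, 1 and 3 for perineurium, 1 and 4 for satellite glia, 1 and 1 for endothelial and mural, 29 and 0 for ribosomal protein and 0 and 0 for mitochondrial genome genes. The mitochondrial genome gave 7.89%, 7.72% and 7.97% of UMIs in members of TN1, TN2 and TN3 and 11.8%, 7.94% and 7.46% in the remaining spots.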

How the data were processed

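Spatial gene expression was measured on 4 Visium areas (TN1, TN2, TN3 and HC). The authors ran Space Ranger 1.2.0 (file header) and deposited raw UMI counts of every gene and spot in 1 matrix, with the area given by a barcode suffix. The genome build is not given in the sources used here, nor is any equalising of depth between areas. Areas held 23546025 (TN1), 38769935 (TN2), 32239597 (TN3) and 41335930 (HC) UMIs. Of 3573 barcode sequences, 2337 occurred in 2 or more areas, as slide positions repeat between areas.

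CPM used all UMIs of a spot or set. Sums per area and set were tested with edgeR 4.0.16 (TMM, filterByExpr, area as a term, 2 residual degrees of freedom) in R 4.3.3, with DESeq2 1.42.0 as the alternative. Both sets of an area come from the same section, which is the source of the pairing. With 1 animal an area, p-values rest on 3 animals. The 9 genes that chose spots stayed in library sizes. The fits were tested on simulated data, and the outcome is not reported here. Per-area log2 ratios used CPM plus 1.

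The members and lists were chosen with earlier results of these data known. Named genes were the 12 largest rises and falls per comparison, past the adjusted threshold, changed the same way in all 3 areas, with a mean of at least 20 CPM in the higher set and a gene symbol. List examples were those of highest mean CPM, and other list members were named after their values had been seen. Genes that share a symbol with another gene (147 such symbols) were kept apart and not summed. The Tlx2 named here is thus 1 of the genes with that symbol, and its identity is uncertain. Some listed genes are counted but not reported here. HC has no numbered counterpart and entered no test. DESeq2 without TN1 was added after seeing the data.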

Additional observations from a re-analysis of the deposited data

How the results depend on the processing

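Against the myelin spots, the count of genes higher and lower (254 and 508) became 11 and 59 in DESeq2, 41 and 85 in DESeq2 without TN1, and 0 and 0 without the replicate block or with an equal number of spots from each area. Leaving out 1 replicate gave 0 to 65 higher and 0 to 178 lower (0 and 0 without TN1, 65 and 178 without TN2, 15 and 28 without TN3). The lower count was 327 with a minimum of 5000 UMIs and 288 with a score from thinned UMIs, and the higher count was 465 with a score without Thbs2. Against the remaining spots, 2065 and 2749 became 236 and 985 in DESeq2, 898 and 1636 in DESeq2 without TN1, and 91 and 1285 without the replicate block, and the higher count was 1131 with an equal number of spots from each area. Leaving out 1 replicate gave 448 to 2403 higher and 1085 to 2896 lower (448 and 1085 without TN2, 836 and 1545 without TN3). The other settings (DESeq2 size factors, no filter, gene families left out, 200 spots, other marker sets) kept these counts within 1.5 times. Members in TN1 were 12 with a score without Gpr83 and 9 without Cthrc1, and HC spots past the last member's score were 3 with thinned UMIs, 1 without Thbs2 and 32 with an equal number of spots from each area, where TN1 sets a lower last score. Thinning kept 210 of the 400 members (52.5%). Of 479 repeats of the 24 genes named against the myelin spots, 119 lost the threshold and 0 reversed, and of 432 against the remaining spots 10 did and 0 reversed. Of list medians, 27 of 380 and 15 of 342 moved by more than the spread between areas. The cause of these shifts was not tested. No paired analysis was possible for TN against HC because they share fewer than 2 replicate numbers and no test was made. The depth of the TN1 members, at 32426 UMIs, limits every value from that area.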
